A study of Mus musculus with 24 samples.

Results

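Heart and skeletal muscle of the same wild-type (WT) male mice were compared over 6 of the 24 arrays of the series. The 6 arrays were chosen by their labels alone as WT heart, 3 arrays, and WT muscle, 3 arrays, and mice WT1, WT2 and WT3 each gave 1 array of each tissue. The mice were WT animals of a line made with Crispr/Cas9 that carries the I312R change in *Rap1*, a protein of the telomeric shelterin complex, and that had been backcrossed 4 times to C57BL/6N. The mutant (*Rap1* KI) mice of the same line were hybridised in the same tissues and are used here only for a final comparison. Mouse WT1 was 5 months old and mice WT2 and WT3 were 2 months old, and the *Rap1* KI mice had the same ages, so age and animal cannot be told apart. The labels name neither the heart chamber nor the muscle that was taken, and RNA came from the whole homogenised piece, with all of its cell types.

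Heart and skeletal muscle are both striated. Their filaments, membranes and fuel supply are built from related proteins, which in many cases come from separate genes for each tissue. Cardiac cells are short, are joined end to end at intercalated discs and contract without rest. They depend on calcium entry through L-type channels to open the ryanodine receptor of the sarcoplasmic reticulum, and they live largely on fatty acids. Skeletal fibres are long multinucleate cells that each receive a motor nerve ending at the neuromuscular junction. In these fibres the L-type channel acts mainly as a voltage sensor that is coupled directly to the ryanodine receptor, and fast fibres draw on creatine phosphate, glycogen and glycolysis for short bursts of force. The heart is also a gland, since its atria and, under load, its ventricles release natriuretic peptides.

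In what follows a level is the log2 processed signal of a gene's probe minus the 75th percentile of that array, so that 0 stands for that percentile. A level describes 1 probe across arrays and is not a measure of how abundant one gene is beside another. A difference is heart minus muscle on the log2 scale, positive where heart is higher, with its standard error (SE), from a limma fit with the mouse as a block (n = 3 mice). A gene was called higher in a tissue at an adjusted p below 0.05, and for a gene that was not well above background on any array of one tissue only a lower bound of the fold is given. List medians are over fitted differences, which for such dim genes are not bounds. Where only some arrays of a tissue were well above background, the fitted difference is given. Its size then depends on dim levels, as for *Mybpc3*, *Ryr2*, *Rnf207*, *Myh2* and *Hoxc9*. A probe was tested where 3 or more of these arrays had it well above background, which held for 33296 of 55681 probes, and these included 15735 named genes. A probe not well above background on any array of one tissue passed only through the other tissue. Its direction was set by the filter, so list counts that hold such genes are descriptions.

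The signal at the 75th percentile lay between 673 and 1194 units on the 3 heart arrays and between 561 and 619 on the 3 muscle arrays, and 60.2 to 61.9% of probes on the heart arrays and 57.6 to 58.5% on the muscle arrays were well above background. Hearts WT1 and WT2 shared a slide, and heart WT3 shared another slide with all 3 muscles. Within that slide, the difference between heart WT3 and muscle WT3 had the sign of the paired estimate for 9073 of the 9076 probes called. This pair is 1 of the 3 behind that estimate and the probes were chosen by it, so the count is a description, and an effect of the slide and one of the tissue can be separated only through heart WT3. Among named genes heart WT1 stood apart from the other WT hearts in being low. It was at least 3 log2 units below both of them for 45 named genes and above both by that distance for 0, whereas heart WT2 was below the others for 1 and above for 10, and heart WT3 below for 4 and above for 23. Over all tested probes, named or not, heart WT3 departed most, below the others for 9 and above for 165. On that count heart WT1 was below for 57 and above for 6, and heart WT2 below for 7 and above for 17. The genes that were low in heart WT1 included the atrial genes *Sln*, *Myl7*, *Myl4* and *Mybphl*, described below with and without this mouse, and the fat cell genes *Adipoq*, *Cfd*, *Cidec*, *Plin1* and *Retn*. Among the muscles, WT1 was below both others by the same distance for 21 named genes, many of them of tendon and cartilage (*Comp*, *Tnmd*, *Mkx*, *Fmod*), and above for 5.

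Markers of both tissues were read first, as a description. Of 10 genes listed as cardiomyocyte markers 9 were higher in heart, and all 10 of those listed for the skeletal fibre were higher in muscle. *Nkx2-5* and *Gata4* were not above background in any muscle, and *Myh4*, *Myh1* and *Mylpf* were not above background in any heart. These genes passed the filter through the other tissue alone, so their direction was set by the filter and is not a test of the labels. The cardiomyocyte marker that was not called was cardiac alpha-actin, *Actc1*, which stood at 9.06, 8.63 and 9.66 in the hearts of WT1, WT2 and WT3 and at 6.54, 8.75 and 9.08 in their muscles, with a difference of 1.00 (adjusted p = 0.234). The summed linear signal of the skeletal fibre markers, in units of each array's 75th percentile, was 31.3 to 87.2 in the hearts and 4279 to 4305 in the muscles, and that of the cardiomyocyte markers, *Actc1* included, was 2187 to 3664 in the hearts and 94.2 to 545 in the muscles. Probes of near-identical genes, such as the actins, the myosin heavy chains and the globins, can also take up RNA of a relative, and their values are uncertain to that extent.

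The tissues differed at 9076 probes (27.3%), 4568 higher in heart (13.7%) and 4508 higher in muscle (13.5%). Among named genes 2680 (17.0%) were higher in heart and 2022 (12.9%) in muscle, together 29.9% of those tested. These shares apply beside every list count below, and a list near them shows no more than the array as a whole. The median absolute difference of the called probes was 1.78, the smallest called difference was 0.86, and the median difference over all named genes was 0.03. On 16748 probes (50.3%) the 3 hearts and the 3 muscles did not overlap, so a gap between the arrays alone was common. Of the called probes 903 were not above background in any muscle and 477 were not above background in any heart. Leaving out mouse WT1 or WT2 brought the number of calls to 4962 and 5218, and leaving out WT3 brought it to 10119.

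**Figure D1:**
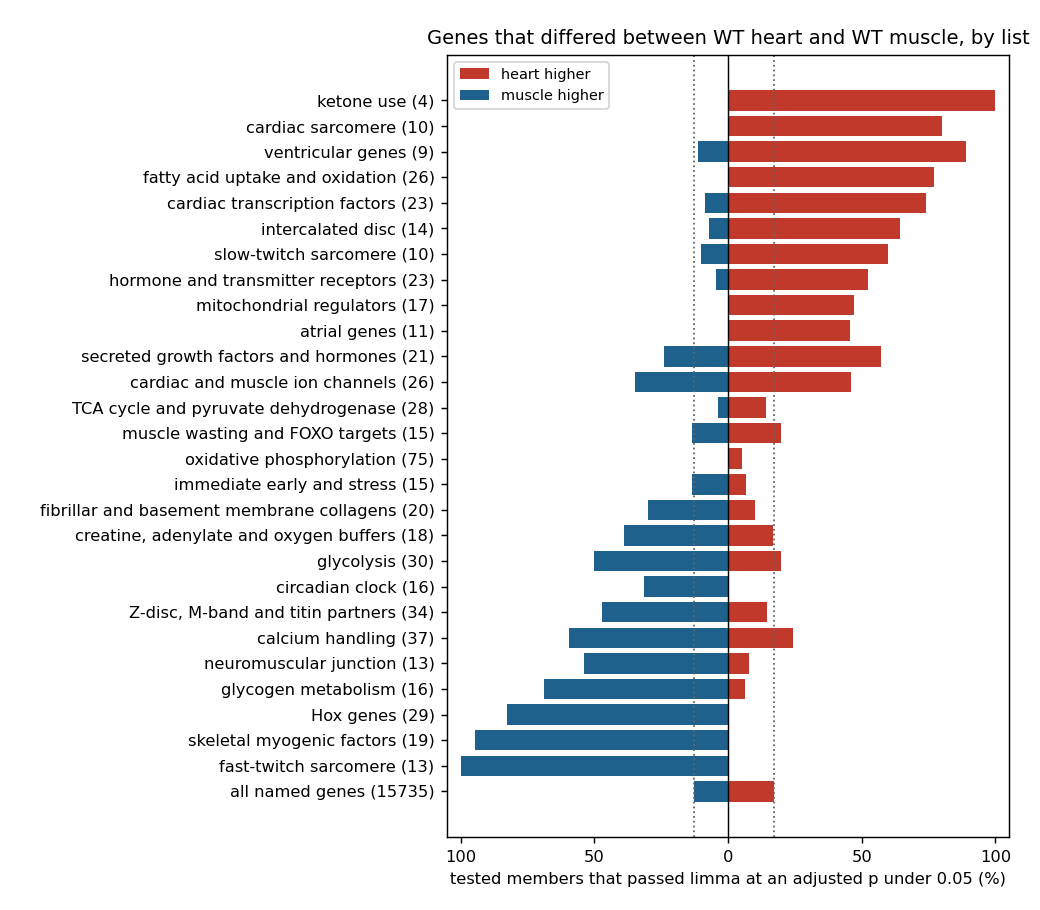
Share of the tested members of each gene list that were called between WT heart and WT muscle. Bars run to the right for genes higher in heart and to the left for genes higher in muscle, in percent of the tested members, whose number follows the list name, and the dotted lines mark the shares over all named genes, 17.0% and 12.9%. All 13 fast-twitch sarcomere genes and 18 of 19 skeletal myogenic factors lay in the muscle direction, and all 4 ketone genes in the heart direction.

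The largest differences on the array were those of the sarcomere, the contractile unit of both tissues, and in particular of its fast-twitch proteins. All 13 fast-twitch sarcomere genes were higher in muscle (12.9% of all named genes were), with a median difference of -10.92, against 0.03 over all named genes. *Myh4*, the myosin heavy chain of the fastest (IIb) fibres, stood at -5.92, -8.25 and -7.78 in the hearts of WT1, WT2 and WT3 and at 8.98, 9.0 and 8.94 in their muscles. The 3 muscles were alike and no heart was well above background, and *Myh4* was at least 28067-fold higher in muscle (adjusted p = 0.000255). *Myh1*, the IIx heavy chain, stood at -6.97, -7.26 and -7.74 in the 3 hearts and at 6.87, 7.90 and 8.61 in the 3 muscles, and it was at least 12372-fold higher in muscle (adjusted p = 0.000299). *Myh2*, the heavy chain of the slower IIa fibres, stood at -6.25, -5.33 and -5.66 in the 3 hearts and at 3.94, 6.97 and 8.38 in the 3 muscles, with a log2 difference of -12.18 (SE 0.73, adjusted p = 0.00076). Muscle WT1 was the lowest of the muscles for *Myh1* and, by a wider margin, for *Myh2*. Alpha-actinin-3, *Actn3*, which crosslinks actin at the Z-disc of fast fibres, had a log2 difference of -13.14 (SE 0.47, adjusted p = 0.000299), and the fast troponin T, *Tnnt3*, had a log2 difference of -12.85 (SE 0.32, adjusted p = 0.00022). The fast troponin C, *Tnnc2*, and the fast light chain kinase, *Mylk2*, followed with -11.55 and -10.92. The fast regulatory light chain *Mylpf* was at least 727-fold higher in muscle (adjusted p = 0.000195). Fast troponin I, *Tnni2*, at -7.82, and fast myosin-binding protein C, *Mybpc2*, at -6.35, were also called. The smallest differences of this list were those of *Acta1*, skeletal alpha-actin (-4.33), and *Myl1*, the fast essential light chain (-4.17).

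Of the 10 cardiac sarcomere genes 8 were higher in heart (17.0% of all named genes were) and 2 were not called, with a median of 9.06. The count was 9 without WT1, 8 without WT2 and 6 without WT3. This list shares *Myl7*, *Myl4* and *Mybphl*, which were low in heart WT1, with the atrial list below. The cardiac myosin-binding protein C, *Mybpc3*, which sets the pace of cross-bridge cycling, stood at 8.66, 8.39 and 9.09 in the hearts of WT1, WT2 and WT3 and at -5.12, -5.58 and -5.98 in their muscles. No muscle came near any heart, and *Mybpc3* had the largest fitted difference in the heart direction, with a log2 difference of 14.27 (SE 0.34, adjusted p = 0.000209). Only 1 of the 3 muscles was well above background for it, so the size of this difference depends on dim levels. Cardiac troponin I, *Tnni3*, the adrenergic phosphorylation target of the thin filament, stood at 8.36, 7.96 and 8.67 in the 3 hearts and at -4.38, -4.13 and -5.67 in the 3 muscles, with a log2 difference of 13.06 (SE 0.47, adjusted p = 0.000299). Cardiac troponin T, *Tnnt2*, stood at 8.50, 8.20 and 8.92 in the 3 hearts and at -1.07, -1.15 and -0.21 in the 3 muscles, with a log2 difference of 9.35 (SE 0.24, adjusted p = 0.000246). The alpha myosin heavy chain, *Myh6*, the main motor of the adult mouse heart, stood at 8.66, 8.29 and 9.11 in the 3 hearts and at -1.50, -0.27 and 1.53 in the 3 muscles, with a log2 difference of 8.77 (SE 0.52, adjusted p = 0.00076). The 3 hearts lay within 1 log2 unit of each other for *Mybpc3*, *Tnni3*, *Tnnt2* and *Myh6*, whereas the muscles were spread for *Myh6*, with WT1 the lowest. Nebulette, *Nebl*, the cardiac relative of nebulin, was at least 191-fold higher in heart (adjusted p = 0.000299), and leiomodin-2, *Lmod2*, which elongates thin filaments, had a difference of 3.44.

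**Figure D2:**
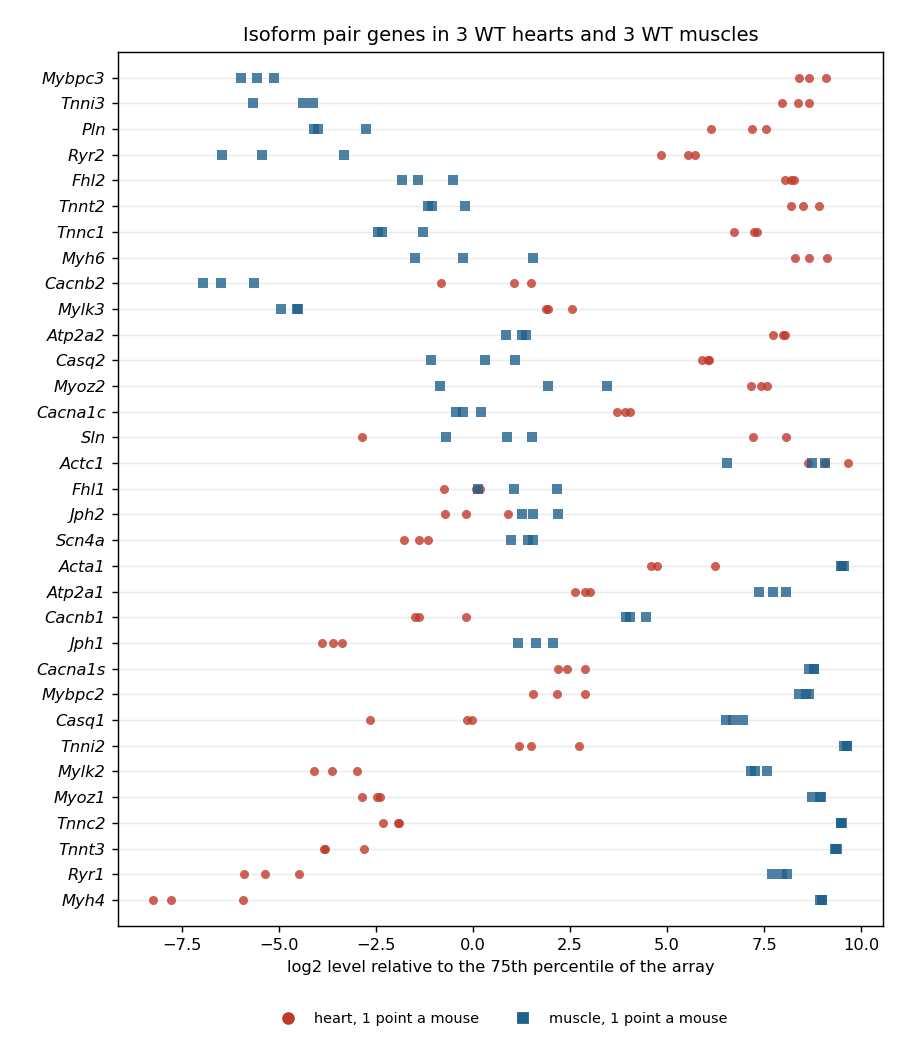
Levels of paired cardiac and skeletal isoforms in the 3 hearts and 3 muscles. Each point is 1 array, on a log2 axis with the array's 75th percentile at 0, with the tissues in different colours and one row for each gene shown. *Tnni3* and *Mybpc3* were high in the hearts and low in the muscles, and *Myh4* and *Tnnt3* the reverse, while *Actc1*, *Jph2* and *Fhl1* overlapped or lay close in both tissues.

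The 10 slow-twitch genes, whose products are shared by slow skeletal fibres and the heart, were split. Of these, 6 were higher in heart, 1 was higher in muscle (2 without WT3) and 3 were not called, with a median of 4.01. Cardiac and slow troponin C, *Tnnc1*, stood at 7.23, 6.74 and 7.32 in the hearts of WT1, WT2 and WT3 and at -2.46, -2.34 and -1.29 in their muscles, with a log2 difference of 9.13 (SE 0.30, adjusted p = 0.000299). The ventricular and slow regulatory light chain, *Myl2*, stood at 8.55, 8.22 and 8.89 in the 3 hearts and at -0.89, 0.92 and 1.46 in the 3 muscles, with a log2 difference of 8.05 (SE 0.49, adjusted p = 0.000766), and its partner *Myl3* had a log2 difference of 7.11 (SE 0.58, adjusted p = 0.00165). The beta heavy chain, *Myh7*, stood at 4.37, 5.41 and 5.48 in the 3 hearts and at -0.50, -1.79 and 0.87 in the 3 muscles, with a log2 difference of 5.56 (SE 0.56, adjusted p = 0.00293). Hearts and muscles did not overlap for these genes, and muscle WT1 was the lowest array for *Myl2*. Slow troponin T, *Tnnt1*, had a difference of 2.47, and the heavy chain *Myh7b*, host of a muscle microRNA, had one of 9.14. The member that was higher in muscle was the slow skeletal myosin-binding protein C, *Mybpc1*, at -3.79, -3.60 and -2.97 in the 3 hearts and at 5.17, 6.54 and 7.55 in the 3 muscles, with a log2 difference of -9.87 (SE 0.37, adjusted p = 0.000319). Slow troponin I, *Tnni1* (-1.67, adjusted p = 0.0934), *Myl6b* (-1.22, adjusted p = 0.062) and slow tropomyosin *Tpm3* (0.62, adjusted p = 0.12) were not called. *Myl6b* passed the test without WT3 (adjusted p = 0.0315).

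The cardiac hormones are shown beside the fast myosins with the 250 bases before their start sites, because these 4 genes were among those with the largest differences and each pair lies close together on one chromosome. *Nppa*, which encodes atrial natriuretic peptide, stood at 6.72, 8.57 and 9.48 in the hearts of WT1, WT2 and WT3 and at -3.43, -3.20 and -3.60 in their muscles, with a log2 difference of 11.67 (SE 0.57, adjusted p = 0.000517). *Nppb*, which encodes B-type natriuretic peptide, stood at 6.18, 4.63 and 5.23 in the 3 hearts and at -5.16, -6.51 and -5.79 in the 3 muscles and was at least 1629-fold higher in heart (adjusted p = 0.000179). The hearts of WT2 and WT3 were higher than that of WT1 for *Nppa*. The sequences are from RefSeq on build GRCm38.p6 and all 4 are on the + strand. They run from chr4:148000472-148000721 for *Nppa*, chr4:147985650-147985899 for *Nppb*, chr11:67237562-67237811 for *Myh4* and chr11:67199852-67200101 for *Myh1*. Capitals mark GATAA on either strand in the 2 hormone genes, and the MEF2 consensus and the CArG box in the 2 myosin genes.
Nppa: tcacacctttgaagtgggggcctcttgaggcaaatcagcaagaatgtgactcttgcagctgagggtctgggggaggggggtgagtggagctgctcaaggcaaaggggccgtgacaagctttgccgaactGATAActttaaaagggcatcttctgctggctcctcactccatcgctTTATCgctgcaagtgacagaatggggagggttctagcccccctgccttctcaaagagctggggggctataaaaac
Nppb: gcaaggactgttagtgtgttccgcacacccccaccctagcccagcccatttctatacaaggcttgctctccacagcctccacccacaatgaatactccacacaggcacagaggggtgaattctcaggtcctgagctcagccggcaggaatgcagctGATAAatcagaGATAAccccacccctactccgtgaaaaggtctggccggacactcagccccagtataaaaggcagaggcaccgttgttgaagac
Myh4: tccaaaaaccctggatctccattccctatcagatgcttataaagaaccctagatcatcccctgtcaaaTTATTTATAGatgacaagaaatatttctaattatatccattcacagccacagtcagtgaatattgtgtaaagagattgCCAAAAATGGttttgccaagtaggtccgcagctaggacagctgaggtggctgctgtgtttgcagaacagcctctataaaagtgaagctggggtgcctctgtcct
Myh1: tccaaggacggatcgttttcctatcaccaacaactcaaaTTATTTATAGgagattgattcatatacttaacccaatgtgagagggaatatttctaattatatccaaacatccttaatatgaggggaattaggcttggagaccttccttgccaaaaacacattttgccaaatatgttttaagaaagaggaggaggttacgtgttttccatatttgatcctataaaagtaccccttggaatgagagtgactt

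GATAA, the core recognised by GATA factors, was found in 2 places in the *Nppa* window, starting 121 and 75 bases before the start site, and in 2 places in the *Nppb* window, starting 94 and 83 bases before it. It was absent from the *Myh4* and *Myh1* windows. Both strands were searched. Over all 32851 promoters of 27025 genes that RefSeq gave, 22.6% held GATAA, and over the 2647 promoters of named genes called higher in heart 17.3% did, against 17.5% of the 2050 of genes called higher in muscle and 16.4% of all named genes tested. Among the 14 promoters of the 10 cardiac sarcomere genes 6 (42.9%) held it. The MEF2 consensus, an A/T-rich element read by the MEF2 factors, was present once in the *Myh4* window, 182 bases before the start, and once in the *Myh1* window, 211 bases before it. The letters were TTATTTATAG in both, and 6 of them also read as TATAAA on the opposite strand. A CArG box, the element of serum response factor, was found in *Myh4* 104 bases before the start site and was not found in the *Myh1* window. The MEF2 consensus occurred in 2.92% of all promoters and in 1.85% of those of all named genes tested. It occurred in 1.85% of those of genes called higher in heart and in 2.93% of those called higher in muscle. The fast-twitch list had a promoter for 9 of its 13 genes, and 2 of these 9 promoters (22.2%) held it. Those 2 are the *Myh4* and *Myh1* windows shown above, so this share adds nothing to them. The CArG box occurred in 1.47% of all promoters and in 1.37% of those of all named genes tested. It occurred in 2 of those 9 (22.2%), the *Myh4* window among them, and in 3 of the 14 cardiac sarcomere promoters (21.4%). The E-box core CANNTG occurred in 66.2% of all promoters, in 9 of the 14 cardiac and in 7 of the 9 fast-twitch promoters. It shared 1 base with the first GATAA of *Nppb*. CATTCC, the M-CAT core, was found in 12.6% of all promoters, in 4 of the 14 and in 5 of the 9 (55.6%). These matches describe letters in a window, and factor binding was not measured.

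Genes of the heart chambers followed, and here the results depended on heart WT1. Of the 11 genes listed as atrial, 5 were higher in heart and 6 were not called, with a median of 3.58. The atrial regulatory light chain, *Myl7*, stood at -2.68, 6.37 and 7.23 in the hearts of WT1, WT2 and WT3 and at -6.19, -5.81 and -6.87 in their muscles. Heart WT1 lay far below the other hearts and above its own muscle. *Myl7* was at least 517-fold higher in heart (adjusted p = 0.0226) with all mice and at least 4718-fold (adjusted p = 1.3e-05) without WT1, and at least 208-fold (adjusted p = 0.0493) without WT2 and at least 141-fold (adjusted p = 0.0728) without WT3. Sarcolipin, *Sln*, an inhibitor of the calcium pump found in atria and in some skeletal fibres, stood at -2.87, 7.21 and 8.07 in the 3 hearts and at 0.87, -0.69 and 1.51 in the 3 muscles. Heart WT1 was below all 3 muscles, and the difference was 3.58 (adjusted p = 0.304) with all mice and 7.23 (adjusted p = 8.36e-05) without WT1. The atrial essential light chain, *Myl4*, stood at 1.33, 8.28 and 9.10 in the 3 hearts and at 1.78, 2.40 and 2.92 in the 3 muscles, with a difference of 3.87 (adjusted p = 0.0958) and one of 6.03 (adjusted p = 0.000111) without WT1. *Mybphl*, an atrial relative of myosin-binding protein H, was at least 88.8-fold higher in heart (adjusted p = 0.0184) with all mice and at least 533-fold (adjusted p = 1.32e-05) without WT1, and at least 44.8-fold (adjusted p = 0.0397) without WT2 and at least 29.3-fold (adjusted p = 0.0638) without WT3. *Fgf12*, a modulator of sodium channels, was at least 23.2-fold higher in heart (adjusted p = 0.0201) with all mice and at least 102-fold (adjusted p = 2.81e-05) without WT1, and at least 12-fold (adjusted p = 0.0434) without WT2 and at least 10.2-fold (adjusted p = 0.0726) without WT3. For both genes heart WT1 lay between the other hearts and the muscles. *Bmp10*, an atrial growth factor, was at least 5.99-fold higher in heart (adjusted p = 0.0523) with all mice, which did not pass, and at least 12.6-fold (adjusted p = 0.000298) without WT1. *Dkk3* had a difference of 0.17 (adjusted p = 0.947) and without WT1 one of 2.73 (adjusted p = 0.00504). Without WT1, 10 of the 11 atrial genes were called higher in heart and the median was 6.03, without WT2 the count was 4 and without WT3 it was 2. *Myl7*, *Mybphl* and *Fgf12* lost the call without WT3 (adjusted p = 0.0728, 0.0638 and 0.0726).

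**Figure D3:**
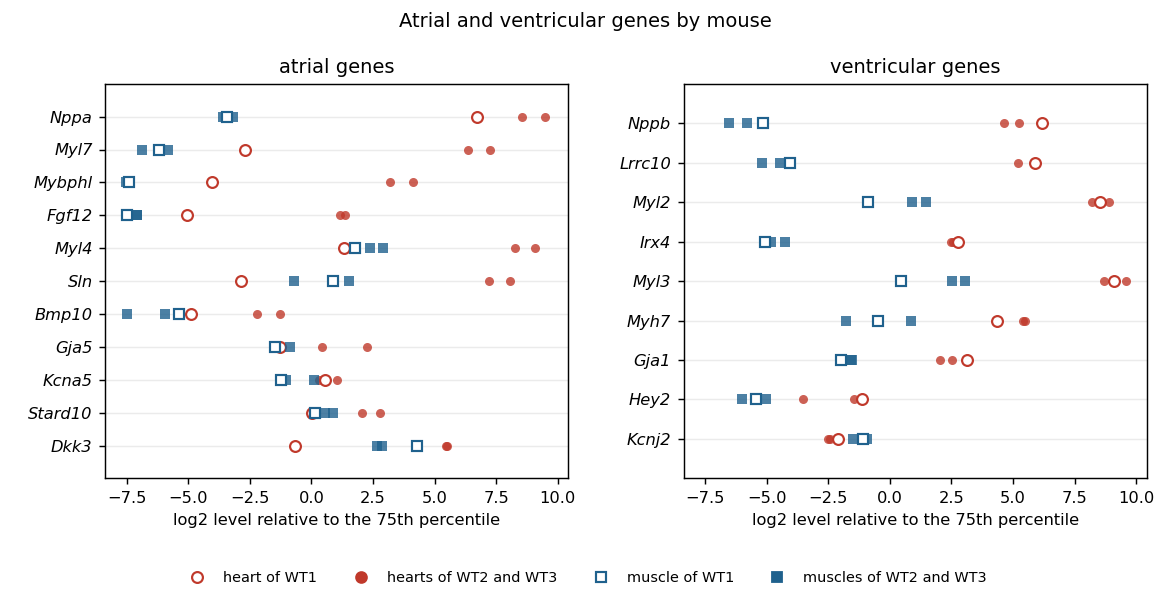
Levels of atrial and ventricular genes in each WT heart and muscle. Each point is 1 array, with open symbols for mouse WT1 and filled symbols for WT2 and WT3, on a log2 axis relative to the array's 75th percentile. Heart WT1 lies below the other hearts for *Myl7*, *Sln* and *Myl4*, and with them for the ventricular genes *Myl2*, *Myl3* and *Irx4*.

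For the 9 ventricular genes heart WT1 lay with or near the other hearts. Of these, 8 were higher in heart and 1 in muscle (0 without WT1 or without WT2), with a median of 7.11. *Lrrc10*, a cardiac leucine-rich repeat protein, stood at 5.91, 5.22 and 5.91 in the hearts of WT1, WT2 and WT3 and at -4.03, -4.46 and -5.19 in their muscles, with a log2 difference of 10.24 (SE 0.36, adjusted p = 0.000299). *Irx4*, a transcription factor of the ventricle, stood at 2.76, 2.47 and 2.57 in the 3 hearts and at -5.09, -4.25 and -4.81 in the 3 muscles, with a log2 difference of 7.31 (SE 0.31, adjusted p = 0.000361). The 3 hearts lay within 1 log2 unit of each other for both genes. Connexin 43, *Gja1*, which forms the gap junctions of the ventricle, had a log2 difference of 4.27 (SE 0.36, adjusted p = 0.00181), and *Hey2*, a Notch target that represses atrial genes in the ventricle, had a log2 difference of 3.46 (SE 0.64, adjusted p = 0.0171). The inward rectifier *Kcnj2*, which holds the resting potential in both tissues, was higher in muscle, at -2.11, -2.51 and -2.43 in the 3 hearts and at -1.10, -0.94 and -1.48 in the 3 muscles, with a log2 difference of -1.18 (SE 0.26, adjusted p = 0.0286). *Kcnj2* lost the call without WT1 (adjusted p = 0.118) and without WT2 (adjusted p = 0.147).

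Z-disc and M-band proteins, which anchor the filaments, were more often higher in muscle. Of 34 genes 16 were higher in muscle and 5 in heart (12.9% and 17.0% of all named genes were), and 13 were not called. The median was -1.17. The calsarcins, which tie calcineurin to the Z-disc, were divided by tissue. *Myoz3* was at least 3688-fold higher in muscle (adjusted p = 0.000179), *Myoz1* had a log2 difference of -11.47 (SE 0.26, adjusted p = 0.000195) and *Myoz2* had a log2 difference of 5.88 (SE 0.86, adjusted p = 0.00867) in the opposite direction. *Myoz2* stood at 7.58, 7.17 and 7.43 in the 3 hearts and at -0.86, 1.92 and 3.45 in the 3 muscles, and muscle WT1 was the lowest of all 6 arrays. Nebulin, *Neb*, the ruler of the skeletal thin filament, had a log2 difference of -9.48 (SE 0.37, adjusted p = 0.000327), and myotilin, *Myot*, and the stress-responsive *Ankrd2* had differences of -4.64 and -5.69. In the heart direction the LIM protein *Fhl2* had a log2 difference of 9.43 (SE 0.34, adjusted p = 0.000299). Muscle LIM protein, *Csrp3*, had a log2 difference of 6.77 (SE 0.81, adjusted p = 0.005), and the cardiac ankyrin repeat protein *Ankrd1* had a log2 difference of 6.72 (SE 0.32, adjusted p = 0.000475). Alpha-actinin-2, *Actn2*, the isoform of all cardiac and skeletal fibres, had a difference of 1.98. Titin, *Ttn*, stood at 7.89, 7.57 and 7.77 in the 3 hearts and at 8.72, 8.66 and 8.67 in the 3 muscles, with a small difference of -0.94 that was called. Telethonin, *Tcap* (-0.69) and the M-band genes *Myom1* (-0.59) and *Myom2* (-0.57) were not called. *Actn2* lost the call without WT1 (adjusted p = 0.0724). *Ttn* lost the call without WT1 (adjusted p = 0.203), without WT2 (adjusted p = 0.191) and without WT3 (adjusted p = 0.054).

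In calcium handling the tissues differed in the isoform used at many steps. Of 37 genes 22 were higher in muscle and 9 in heart (12.9% and 17.0% of all named genes were), and 6 were not called. The median was -1.85. The ryanodine receptors are the release channels of the sarcoplasmic reticulum. The skeletal *Ryr1* stood at -4.49, -5.38 and -5.90 in the hearts of WT1, WT2 and WT3 and at 7.96, 8.10 and 7.70 in their muscles, with a log2 difference of -13.18 (SE 0.32, adjusted p = 0.00022), and the cardiac *Ryr2* stood at 5.72, 5.53 and 4.84 in the 3 hearts and at -6.47, -5.45 and -3.33 in the 3 muscles, with a log2 difference of 10.45 (SE 0.78, adjusted p = 0.00125). No array of one tissue came near those of the other for either gene. The pore subunits of the L-type channel were likewise divided, with *Cacna1s* at -6.24 and *Cacna1c* at 4.06, as were the beta subunits, with *Cacnb1* at -5.18 and *Cacnb2* at least 61.6-fold higher in heart (adjusted p = 0.00076), without WT3 at least 94.8-fold (adjusted p = 0.00527). The skeletal gamma subunit *Cacng1* was at least 730-fold higher in muscle (adjusted p = 0.000361), and *Stac3* and *Jsrp1*, which act in coupling the voltage sensor to release in skeletal fibres, were at -8.50 and -8.37. The calcium pumps were divided too. *Atp2a1*, of fast fibres, stood at 3.02, 2.89 and 2.62 in the 3 hearts and at 7.74, 8.06 and 7.36 in the 3 muscles, with a log2 difference of -4.88 (SE 0.25, adjusted p = 0.000555). *Atp2a2*, of heart and slow fibres, stood at 8.0, 7.72 and 8.04 in the 3 hearts and at 0.85, 1.37 and 1.27 in the 3 muscles, with a log2 difference of 6.76 (SE 0.27, adjusted p = 0.000361). Phospholamban, *Pln*, the adrenergic brake on the cardiac pump, stood at 7.56, 7.19 and 6.14 in the 3 hearts and at -4.01, -4.10 and -2.77 in the 3 muscles, with a log2 difference of 10.59 (SE 0.57, adjusted p = 0.000609), and the peptide *Mrln*, its skeletal counterpart, had a difference of -6.31. The calsequestrins, which store calcium, were at -7.68 for *Casq1* and 5.92 for *Casq2*. Parvalbumin, *Pvalb*, the soluble calcium buffer of fast fibres, stood at -3.62, -1.63 and -1.29 in the 3 hearts and at 9.76, 9.69 and 9.64 in the 3 muscles, with a log2 difference of -11.88 (SE 0.53, adjusted p = 0.000417). The sodium-calcium exchanger *Slc8a1*, which extrudes calcium from cardiac cells, had a difference of 2.76. Junctophilin-1, *Jph1*, was higher in muscle (-5.25), whereas *Jph2* (-1.68, adjusted p = 0.0688), *Hrc* (-0.41) and the uniporter *Mcu* (-1.48) were not called. *Jph2* and *Mcu* passed the test without WT3 (adjusted p = 0.026 and 0.0243).

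Of 26 ion channel genes 12 were higher in heart and 9 in muscle (17.0% and 12.9% of all named genes were). The other 5 were not called, and the median was 1.28. *Kcnj5*, a subunit of the channel through which acetylcholine slows the atria, stood at 4.06, 4.54 and 4.51 in the hearts of WT1, WT2 and WT3 and at -7.29, -6.85 and -6.52 in their muscles and was at least 857-fold higher in heart (adjusted p = 0.000179). Its partner *Kcnj3* was at least 40.5-fold higher in heart (adjusted p = 0.000675). The hearts were all above the muscles for both. The transient outward channels *Kcnd2* and *Kcnd3* and their subunit *Kcnip2*, which shape early repolarisation, were also higher in heart, *Kcnd2* by at least 197-fold, *Kcnip2* by at least 36.9-fold and *Kcnd3* with a difference of 5.74, and the delayed rectifiers *Kcnq1* and *Kcnh2* were at 5.76 and 4.25. In muscle the shaw-type channel *Kcnc1* (-5.92), the chloride channel *Clcn1*, which stabilises the resting fibre (-5.17), and the skeletal sodium channel *Scn4a* (-2.75) were higher.

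Of the 14 genes of the intercalated disc, which joins cardiac cells mechanically and electrically, 9 were higher in heart, 1 in muscle (0 without WT1 or without WT2) and 4 were not called, with a median of 2.09. Desmoplakin, *Dsp*, which links desmosomes to intermediate filaments, stood at 6.40, 6.02 and 5.83 in the hearts of WT1, WT2 and WT3 and at -7.43, -7.30 and -7.25 in their muscles and was at least 2815-fold higher in heart (adjusted p = 0.000179). The desmosomal cadherin *Dsc2* stood at 1.93, 1.90 and 1.89 in the 3 hearts and at -7.10, -6.59 and -6.38 in the 3 muscles and was at least 156-fold higher in heart (adjusted p = 0.000256). Its relative *Dsg2* stood at -0.17, -0.69 and 0.99 in the 3 hearts and at -5.82, -7.40 and -7.55 in the 3 muscles and was at least 42.8-fold higher in heart (adjusted p = 0.00167). No muscle array reached any heart array for these genes. Plakophilin-2, *Pkp2* (5.47), and N-cadherin, *Cdh2* (6.81), were called as well. Plakoglobin, *Jup*, and the tight junction adaptor *Tjp1* had smaller differences of 1.19 and 1.40. *Nrap*, which acts in myofibril assembly, was higher in muscle (-1.54). *Jup* lost the call without WT1 (adjusted p = 0.178), without WT2 (adjusted p = 0.0569) and without WT3 (adjusted p = 0.0833). *Tjp1* and *Nrap* lost the call without WT1 (adjusted p = 0.175 and 0.0841) and without WT2 (adjusted p = 0.158 and 0.132).

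Of 23 receptor and signalling genes 12 were higher in heart, 1 in muscle (2 without WT2) and 10 were not called, with a median of 1.86. *Corin*, the protease that activates pro-atrial natriuretic peptide, stood at 3.91, 3.61 and 2.59 in the hearts of WT1, WT2 and WT3 and at -7.41, -5.90 and -6.44 in their muscles and was at least 430-fold higher in heart (adjusted p = 0.000525). The muscarinic receptor *Chrm2*, by which the vagus slows the heart, stood at 0.45, 0.39 and 0.62 in the 3 hearts and at -7.50, -7.46 and -7.69 in the 3 muscles and was at least 58.1-fold higher in heart (adjusted p = 0.000255). All hearts were above all muscles for both. The adrenergic receptor *Adrb1* stood at 1.60, 1.70 and 1.51 in the 3 hearts and at -4.05, -4.70 and -5.22 in the 3 muscles, with a log2 difference of 6.26 (SE 0.30, adjusted p = 0.000505). *Adrb3*, the subtype of fat cells, stood at -7.02, -2.92 and -2.84 in the 3 hearts and at 2.77, -2.13 and 1.19 in the 3 muscles, with a difference of -4.87 that was not called (adjusted p = 0.0873) and with heart WT1 the lowest and muscle WT1 the highest array. The endothelin receptor *Ednra* (2.79), the angiotensin receptor *Agtr1a* (2.47) and the clearance receptor for natriuretic peptides, *Npr3* (2.65), were higher in heart, whereas the insulin receptor *Insr* (0.23) and the natriuretic receptors *Npr1* (0.43) and *Npr2* (-0.11) were not called. *Adrb3* passed the test without WT2 (adjusted p = 0.0184).

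Transcription factors also separated the tissues. Of 25 factors of the cardiac programme 23 were tested, and 17 were higher in heart, 2 in muscle and 4 were not called, with a median of 4.26. *Hand1* and *Isl1* did not pass the filter on dim probes. *Nkx2-5*, the homeobox factor of the heart field, stood at 4.74, 4.16 and 5.17 in the hearts of WT1, WT2 and WT3 and at -6.29, -5.97 and -6.11 in their muscles and was at least 1069-fold higher in heart (adjusted p = 0.000251). *Gata4* stood at 3.72, 3.15 and 3.92 in the 3 hearts and at -6.44, -5.29 and -6.88 in the 3 muscles and was at least 502-fold higher in heart (adjusted p = 0.000542), and *Hand2* stood at 2.01, 2.16 and 2.03 in the 3 hearts and at -6.36, -6.0 and -7.83 in the 3 muscles and was at least 174-fold higher in heart (adjusted p = 0.000451). Every heart was above every muscle for these 3 genes. The T-box factor *Tbx20* was at least 55.3-fold higher in heart (adjusted p = 0.00111) and without WT3 at least 33.8-fold (adjusted p = 0.00415), and *Tbx5* and *Gata6* were at 5.16 and 6.68. *Mef2c* (-2.87), which acts in both striated tissues, was among those higher in muscle. *Mef2a* (-0.13), *Mef2d* (-1.04) and *Smyd1* (0.28) were not called. *Mef2d* passed the test without WT3 (adjusted p = 0.0291).

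Of 21 skeletal myogenic factors 19 were tested, and 18 were higher in muscle, 0 in heart and 1 was not called, with a median of -5.50. The determination factor *Myod1* stood at -7.47, -8.03 and -7.30 in the hearts of WT1, WT2 and WT3 and at 0.28, 0.54 and -0.14 in their muscles and was at least 65.2-fold higher in muscle (adjusted p = 0.0004), and *Myf6*, which persists in adult fibres, had a log2 difference of -8.42 (SE 0.25, adjusted p = 0.000251). Myogenin, *Myog*, was at least 46.5-fold higher in muscle (adjusted p = 0.000319). Myostatin, *Mstn*, the secreted brake on muscle growth, stood at -6.0, -4.12 and -7.43 in the 3 hearts and at 3.50, 2.85 and 3.34 in the 3 muscles, with a log2 difference of -9.08 (SE 0.73, adjusted p = 0.00157). *Vgll2*, a cofactor of TEAD factors, and *Tbx15*, which acts in fast fibres, were at -9.01 and -8.57. The hindlimb factor *Tbx4* was at -5.70, and *Pitx1* was at least 9.65-fold higher in muscle (adjusted p = 0.00239) and without WT2 at least 5.83-fold (adjusted p = 0.00142). *Pax7*, which marks satellite cells, the resident stem cells of muscle, was at -3.02, and all 5 satellite cell markers that were tested were higher in muscle. Of these 5, 3 were not above background in any heart and passed the filter through the muscle arrays alone. Their direction was thus set by the filter, and 1 of the 6 markers listed was not tested.

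Hox genes, which keep a record of position along the body axis, were higher in muscle in 24 of the 29 tested of 39, with 0 higher in heart and a median of -3.55. *Hoxc10* stood at -7.50, -8.10 and -6.13 in the hearts of WT1, WT2 and WT3 and at 3.40, 3.49 and 2.73 in their muscles and was at least 515-fold higher in muscle (adjusted p = 0.000597). *Hoxc9* stood at -7.74, -4.16 and -7.41 in the 3 hearts and at 4.13, 3.79 and 4.10 in the 3 muscles, with a log2 difference of -10.44 (SE 0.81, adjusted p = 0.00142). Every muscle was above every heart for both, and heart WT2 was the highest heart for *Hoxc9*. *Hoxa10*, *Hoxc11* and *Hoxa11* were also not above background in any heart, and they were higher in muscle by at least 92.5-fold, at least 44-fold and at least 10.4-fold. Such members passed the filter through the muscle arrays alone, so the count in muscle is not a test of direction for them. The 5 members that were not called included *Hoxa6* (-0.86), *Hoxb2* (0.36), *Hoxb3* (0.41) and *Hoxb4* (-0.20).

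At the neuromuscular junction 7 of 13 genes were higher in muscle, 1 in heart (0 without WT1 or without WT2) and 5 were not called, with a median of -1.94. The subunits of the acetylcholine receptor led. *Chrnd* stood at -7.84, -8.17 and -7.60 in the hearts of WT1, WT2 and WT3 and at -0.35, -0.13 and 0.78 in their muscles and was at least 59.8-fold higher in muscle (adjusted p = 0.000299). *Chrna1* was at -7.26, and the adult subunit *Chrne* was at least 28.4-fold higher in muscle (adjusted p = 0.000433). No heart reached any muscle for these subunits. The receptor kinase *Musk*, which clusters the receptor, was at -6.29. Agrin, *Agrn*, which is released by nerve endings and is also made by other cells, was the member higher in heart (1.36). The receptor partners *Rapsn* (-1.0), *Dok7* (-0.21) and *Lrp4* (-0.21) were not called. *Agrn* lost the call without WT1 (adjusted p = 0.107) and without WT2 (adjusted p = 0.0943). *Rapsn* passed the test without WT3 (adjusted p = 0.0382).

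Genes of fat and ketone use were mostly higher in heart and genes of glycogen metabolism mostly higher in muscle. Of 26 genes of fatty acid uptake and oxidation 20 were higher in heart and 0 in muscle, with a median of 1.43. The differences were small beside those of the sarcomere. *Hadha*, a subunit of the mitochondrial trifunctional protein, stood at 4.33, 4.03 and 4.87 in the hearts of WT1, WT2 and WT3 and at 1.90, 2.33 and 2.15 in their muscles, with a log2 difference of 2.29 (SE 0.30, adjusted p = 0.00635). The fatty acid carrier *Cd36* stood at 6.26, 5.71 and 5.13 in the 3 hearts and at 3.55, 2.99 and 3.90 in the 3 muscles, with a log2 difference of 2.22 (SE 0.38, adjusted p = 0.014). The 3 hearts were above the 3 muscles for 24 of the 26 genes, while 8715 of all 15735 named genes had no overlap in one direction or the other. Lipoprotein lipase, *Lpl* (2.11), and the thiolase *Acaa2* (2.00) were also called, whereas the gatekeeper of mitochondrial import in muscle tissues, *Cpt1b* (0.45), and the binding protein *Fabp3* (1.07) were not. The count fell to 7 without WT1 and to 9 without WT2, and was 20 without WT3. All 4 genes of ketone use were higher in heart. *Bdh1*, which oxidises hydroxybutyrate, stood at 4.93, 3.76 and 4.21 in the 3 hearts and at -1.08, 0.58 and 2.14 in the 3 muscles, with a log2 difference of 3.76 (SE 0.77, adjusted p = 0.0222), and *Oxct1*, the committed step of ketone use, had a difference of 1.12. Without WT1 and without WT2 the count was 2, and without WT3 it was 4. *Oxct1* lost the call without WT1 (adjusted p = 0.258) and without WT2 (adjusted p = 0.128).

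**Figure D4:**
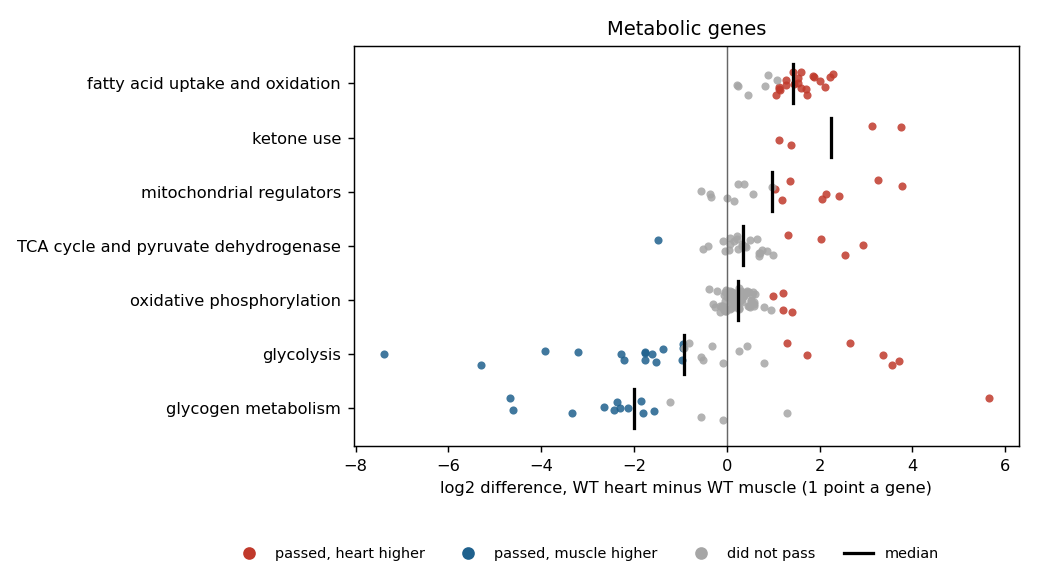
Differences between WT heart and WT muscle for the genes of 7 metabolic lists. Each point is 1 gene at its log2 difference, heart minus muscle, on the horizontal axis, coloured by whether it passed the test and in which direction, with the list median as a vertical bar. The medians run from 2.25 for ketone use and 1.43 for fatty acid use to 0.25 for oxidative phosphorylation, -0.93 for glycolysis and -1.99 for glycogen metabolism.

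Of 30 glycolysis genes 15 were higher in muscle, 6 in heart and 9 were not called, with a median of -0.93. Isoforms of the same step moved in both directions. The muscle lactate exporter *Slc16a3* stood at -0.72, 0.06 and 0.59 in the hearts of WT1, WT2 and WT3 and at 7.53, 7.40 and 7.18 in their muscles, with a log2 difference of -7.39 (SE 0.38, adjusted p = 0.000556), and the regulators *Pfkfb3* and *Pfkfb4* were at -5.29 and -3.91. In the heart direction hexokinase-1, *Hk1*, had a log2 difference of 3.71 (SE 0.25, adjusted p = 0.00101), the heart-type lactate dehydrogenase *Ldhb* had a log2 difference of 3.55 (SE 0.53, adjusted p = 0.00933) and the liver-type phosphofructokinase *Pfkl* had a log2 difference of 3.36 (SE 0.30, adjusted p = 0.00204). *Ldhb* stood at 8.30, 7.91 and 8.40 in the 3 hearts and at 3.30, 4.64 and 6.02 in the 3 muscles, and muscle WT1 was the lowest array. The muscle-type *Pfkm* (-1.76) and *Ldha* (-0.95) were higher in muscle. Without WT1 the counts were 7 in muscle and 4 in heart, and without WT2 also 7 and 4. Of 16 glycogen genes 11 were higher in muscle, 1 in heart (2 without WT3) and 4 were not called, with a median of -1.99. The phosphorylase kinase subunits *Phka1* and *Phkg1* had differences of -4.67 and -4.61, and muscle phosphorylase, *Pygm*, which releases glucose units from glycogen, stood at 6.97, 6.41 and 7.15 in the 3 hearts and at 9.08, 9.01 and 8.81 in the 3 muscles, with a log2 difference of -2.12 (SE 0.29, adjusted p = 0.00702). The brain-type phosphorylase *Pygb* was the member higher in heart, at 4.54, 4.47 and 4.79 in the 3 hearts and at -0.52, -1.23 and -1.40 in the 3 muscles, with a log2 difference of 5.65 (SE 0.31, adjusted p = 0.000613). *Pfkm* and *Ldha* lost the call without WT1 (adjusted p = 0.0519 and 0.231) and without WT2 (adjusted p = 0.0527 and 0.207).

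The common end of these pathways was close to level between the tissues. Of 28 genes of the TCA cycle and pyruvate dehydrogenase 4 were higher in heart, 1 in muscle (0 without WT2) and 23 were not called, with a median of 0.36. Over all named genes 17.0% were higher in heart and 12.9% in muscle. Citrate synthase, *Cs*, stood at 8.36, 8.19 and 8.58 in the hearts of WT1, WT2 and WT3 and at 8.27, 8.19 and 8.46 in their muscles, a difference of 0.07 (SE 0.23, adjusted p = 0.848). *Idh2* stood at 8.12, 7.74 and 8.30 in the 3 hearts and at 4.64, 5.67 and 6.21 in the 3 muscles, with a log2 difference of 2.55 (SE 0.37, adjusted p = 0.00869), and the kinase *Pdk3* and phosphatase *Pdp2*, which set pyruvate dehydrogenase activity, were at 2.02 and 2.93. Of 75 genes of oxidative phosphorylation 4 were higher in heart and 71 were not called, with a median of 0.25. The called members were *Cyc1* (1.00), *Cox4i2* (1.41), *Cox6a1* (1.22) and *Cox8a* (1.21). The heart and muscle isoforms *Cox6a2* (0.00), *Cox7a1* (0.34) and *Cox8b* (-0.29) were not called. The count of oxidative phosphorylation genes was 0 without WT1, 1 without WT2 and 4 without WT3. Of 17 regulators of mitochondria 8 were higher in heart, among them the nuclear receptors *Esrrb* (3.78), *Esrrg* (2.06) and *Ppara* (2.14), the coactivator *Ppargc1a* (1.18) and the carrier *Ucp2* (3.27), and 9 were not called, with a median of 0.96. Without WT1 and without WT2 this count was 4. Of 18 genes that buffer energy and oxygen 7 were higher in muscle, 3 in heart and 8 were not called, with a median of -0.07. *Ampd1*, which drains AMP in working fibres, stood at -7.94, -8.30 and -7.57 in the 3 hearts and at 6.80, 6.81 and 6.68 in the 3 muscles and was at least 6056-fold higher in muscle (adjusted p = 0.000179). Carbonic anhydrase *Car3* (-6.72) and muscle creatine kinase, *Ckm* (-3.18), were higher in muscle. For *Car3* heart WT1 lay 4.00 log2 units below the nearest other heart, and without WT1 the difference was -4.99 (adjusted p = 0.000263). Mitochondrial creatine kinase, *Ckmt2* (0.11), and myoglobin, *Mb* (0.79), were not called. *Esrrg* and *Ppargc1a* lost the call without WT1 (adjusted p = 0.121 and 0.141) and without WT2 (adjusted p = 0.108 and 0.125).

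Of 21 secreted factors 12 were higher in heart, 5 in muscle and 4 were not called, with a median of 2.11. Beside the natriuretic peptides, neuregulin, *Nrg1*, a growth signal between endothelium and cardiac cells, stood at -1.51, -1.89 and -0.76 in the hearts of WT1, WT2 and WT3 and at -6.85, -7.25 and -7.42 in their muscles and was at least 15.9-fold higher in heart (adjusted p = 0.000803). Osteocrin, *Ostn*, a bone and muscle hormone, was at least 53.4-fold higher in muscle (adjusted p = 0.00198), and *Fgf6* was at -5.23. The hearts of all 3 mice were above their muscles for *Nrg1* and below them for *Ostn*. *Fndc5*, the precursor of irisin, was higher in heart (2.36), as was *Il15* (2.93). Of 15 genes linked to muscle wasting and FOXO factors 3 were higher in heart, 2 in muscle and 10 were not called, with a median of 0.32, and the counts were 1 and 1 without WT1, 2 and 2 without WT2 and 3 and 1 without WT3. Over all named genes 17.0% were higher in heart and 12.9% in muscle, so this list was near the shares of the array. The ubiquitin ligase *Fbxo32* had a difference of -1.91, and the other ligase of that pair, *Trim63*, one of -0.66 that was not called. *Fbxo32* lost the call without WT1 (adjusted p = 0.0989) and without WT3 (adjusted p = 0.0592).

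Most clock genes and most immediate early and stress genes were not called. The same was true over all named genes, where 17.0% were higher in heart, 12.9% in muscle and 11033 of 15735 were not called. *Per1*, a clock gene, stood at 4.17, 4.51 and 5.20 in the hearts of WT1, WT2 and WT3 and at 3.94, 4.52 and 5.24 in their muscles, with a difference of 0.06. *Ddit4*, a target of glucocorticoids, stood at 3.77, 4.07 and 5.65 in the 3 hearts and at 2.59, 3.49 and 5.88 in the 3 muscles. The order of mice was the same in both tissues for both genes, with WT1 the lowest and WT3 the highest. These 2 genes were chosen after their values were seen. Over all probes tested, the deviations of the heart and the muscle of a mouse from their tissue means had correlations of 0.09, -0.26 and -0.22 in WT1, WT2 and WT3. Of 16 clock genes 5 were higher in muscle and 11 were not called, with a median of -0.64, and the count was 3 without WT1, 3 without WT2 and 6 without WT3. *Arntl* had a difference of -2.0 and *Bhlhe41* one of -2.52. Of 15 immediate early and stress genes 2 were higher in muscle, 1 in heart (2 without WT3) and 12 were not called, with a median of -0.32, and the count in muscle was 4 without WT1 and 1 without WT2. *Nr4a1*, an early response gene, stood at 3.45, 3.62 and 4.79 in the 3 hearts and at 6.86, 6.75 and 7.81 in the 3 muscles, with a log2 difference of -3.19 (SE 0.24, adjusted p = 0.00136), and the small heat shock protein *Hspb7* had a log2 difference of 3.48 (SE 0.31, adjusted p = 0.00202). Of 20 collagens 6 were higher in muscle, 2 in heart and 12 were not called, with a median of 0.14, and the count in muscle was 2 without WT2. *Col1a1* stood at 3.60, 5.12 and 4.89 in the 3 hearts and at 4.04, 6.97 and 6.82 in the 3 muscles, and WT1 was the lowest of the 3 mice in both tissues. *Col22a1*, a collagen of the junction of muscle and tendon, had a log2 difference of -5.94 (SE 0.32, adjusted p = 0.000602). *Col1a1* lost the call without WT2 (adjusted p = 0.167) and without WT3 (adjusted p = 0.123).

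Markers of the other cell types were read from the same arrays. The shares over all named genes, 17.0% higher in heart and 12.9% in muscle, apply beside each marker count below. In bulk tissue, fewer cells of a type and less RNA per cell cannot be told apart. Blood markers were higher in heart, with 7 of 7 erythroid and 6 of 6 platelet genes called. The platelet count was 5 without WT1 and 4 without WT2. *Alas2*, the erythroid enzyme of haem synthesis, stood at 6.25, 6.18 and 6.74 in the hearts of WT1, WT2 and WT3 and at 1.23, 0.44 and 1.00 in their muscles, with a log2 difference of 5.50 (SE 0.28, adjusted p = 0.000537), and the summed erythroid signal was 970 to 1679 in the hearts and 159 to 275 in the muscles. Of 9 macrophage genes 7 were higher in heart, with a median of 1.35, and the complement gene *C1qa* had a difference of 2.00. The macrophage count was 1 without WT1 and 3 without WT2. Of 8 neutrophil genes 4 were called, and the count was 6 without WT1 and 3 without WT2 or without WT3. The summed neutrophil signal of 26.3 in heart WT2 stood above 4.38 and 6.68 in the other hearts and 1.32 to 3.27 in the muscles. Heart WT2 was also the highest for hepatocyte genes, at 39.6 against 12.2 to 16.5 on the other 5 arrays, and none of the 6 hepatocyte genes was called. The part of blood, neutrophil or liver RNA in the other results was not tested.

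Of 6 genes of the mesothelium and epicardium, the covering layer of the heart, 5 were higher in heart, with a median of 6.10. The count was 6 without WT1 and 4 without WT2 or without WT3. *Wt1* stood at 0.96, 0.92 and 1.16 in the hearts of WT1, WT2 and WT3 and at -7.55, -7.52 and -7.73 in their muscles and was at least 83.7-fold higher in heart (adjusted p = 0.000246), and *Upk3b* was at least 33.1-fold higher in heart (adjusted p = 0.000764) and without WT1 at least 50-fold (adjusted p = 4.17e-05). *Msln*, at 6.19, was called as well, and *Lrrn4* was at least 15.8-fold higher in heart (adjusted p = 0.00126) and without WT1 at least 24.1-fold (adjusted p = 7.65e-05). *Upk3b*, *Wt1*, *Krt8* and *Lrrn4* were not above background in any muscle. All 3 muscles were below all 3 hearts for the genes of this layer. A lack of overlap in one direction or the other was common, at 8715 of all 15735 named genes. Of 11 endothelial genes 4 were higher in heart, 0 in muscle and 7 were not called, with a median of 0.83. None of the 11 had overlap between the tissues, which is to be read beside that same share of all named genes. *Emcn* (2.16) and the growth factor receptor *Kdr* (1.73) were called, and *Pecam1* (0.82) and *Cdh5* (0.83) were not. The endothelial count was 2 without WT1 and 3 without WT2. Of 10 fibroblast genes *Tcf21*, a factor of cardiac fibroblasts, was at least 47.1-fold higher in heart (adjusted p = 0.000507), and 2 were higher in muscle (0 without WT2 and 1 without WT3). Tendon genes were higher in muscle in 4 of 6 (3 without WT2 or without WT3). *Tnmd* stood at -7.77, -4.67 and -6.38 in the 3 hearts and at -4.31, 0.02 and -0.51 in the 3 muscles. The summed tendon signal was 14.6 in muscle WT1 against 84.8 and 53.1 in the other muscles, and 6.81 to 22.5 in the hearts. *Prx* (-3.28), a Schwann cell gene of myelin, was higher in muscle, while 5 of the 8 Schwann cell genes were not called.

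Among fat cell genes *Adipoq*, which encodes adiponectin, stood at -4.50, 0.45 and -0.39 in the hearts of WT1, WT2 and WT3 and at 5.37, 1.74 and 3.66 in their muscles. Heart WT1 was the lowest array, muscle WT1 the highest, and the other arrays lay between. The difference was -5.07 (adjusted p = 0.0714) with all mice and -2.67 (adjusted p = 0.0309) without WT1. Of 7 fat cell genes 1 was called higher in muscle, which was *Retn* at -4.79 and without WT1 at -2.81 (adjusted p = 0.0144), and the count was 4 without WT1, 5 without WT2 and 0 without WT3. The brown fat gene *Cidea* was higher in heart (3.81), and the other brown fat gene tested, *Dio2*, was not called (0.77). *Cidea* lost the call without WT3 (adjusted p = 0.0688). The summed signal of the fat cell genes was 233 to 259 in the hearts and 213 to 963 in the muscles, with muscle WT1 the highest and muscle WT2 the lowest. *Fabp4*, which endothelium also makes, stood at 7.62, 7.36 and 7.53 in the 3 hearts and at 7.98, 6.42 and 7.42 in the 3 muscles, with a difference of 0.23 that was not called. The part of fat in the lipid genes above was not tested. Of the remaining lists, smooth muscle had 2 of 9 genes higher in heart (0 without WT1 or without WT2). Lymphocyte had 3 of 6 in heart (2 without WT2 or without WT3) and 0 in muscle (1 without WT3). Neuron had 1 of 4 in heart (0 without WT1) and 1 in muscle (0 without WT1, without WT2 or without WT3). Skin had 1 of 4 in heart, lung 1 of 2 in muscle (0 without WT1) and thymus 0 of 1 (1 in muscle without WT3). The endocardium had 2 of 4 in heart (1 without WT2 or without WT3) and 1 in muscle.

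Some of the largest differences on the array fell outside the structural lists. *Ptgds*, which makes prostaglandin D and is found in heart and meninges, stood at 7.36, 6.53 and 7.36 in the hearts of WT1, WT2 and WT3 and at -3.06, -2.82 and -2.72 in their muscles, with a log2 difference of 9.95 (SE 0.30, adjusted p = 0.000255). *Rnf207*, a ubiquitin ligase that affects cardiac repolarisation, stood at 3.76, 4.54 and 4.34 in the 3 hearts and at -5.24, -6.49 and -5.29 in the 3 muscles, with a log2 difference of 9.89 (SE 0.44, adjusted p = 0.000417). The cardiac kinase *Tnni3k* was at least 1791-fold higher in heart (adjusted p = 0.000179), and *Mhrt*, a noncoding RNA transcribed from the *Myh7* locus, was at least 923-fold higher in heart (adjusted p = 0.000299). In the muscle direction the phospholipase *Plcd4* was at least 2760-fold higher in muscle (adjusted p = 0.000179) and the phosphatase *Dusp13* had a log2 difference of -10.15 (SE 0.29, adjusted p = 0.000246). Each of these genes had no overlap between hearts and muscles, which the rule that chose them required.

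The same contrast in 3 *Rap1* KI mice gave 8688 called probes (26.1%). Of the 9076 probes called in WT mice 8982 had the same sign in *Rap1* KI mice, 6585 were called in both with the same sign (72.6% of the WT calls and 75.8% of the *Rap1* KI calls) and 1 with the opposite sign. A direct limma test of whether heart minus muscle differed by genotype called 0 of 36696 probes (0%), with 1008 (2.75%) at an unadjusted p below 0.05 and a lowest adjusted p of 0.9999. The smallest unadjusted p belonged to *Tmem270*, whose difference was 2.19 higher in *Rap1* KI mice than in WT mice. It was followed by *Lman1l* (-2.17), *Kcng2* (-1.58), *Plekhh1* (-2.27) and a second probe of *Six2* (1.98). For the potassium channel subunit *Kcng2*, heart minus muscle was 8.68, 8.68 and 8.41 in the WT mice and 6.85, 7.11 and 7.08 in the *Rap1* KI mice. In every muscle of both genotypes *Kcng2* lay below the lowest level of any probe well above background on that array. The same held for *Tmem270* in the WT hearts, in muscles WT1 and WT2, in heart KI2 and in the muscles of all *Rap1* KI mice. It held for *Lman1l* in muscles WT1, WT2 and KI2. For the second probe of *Six2* it held in the WT hearts and in hearts KI2 and KI3. These fitted differences rest on dim levels and are uncertain to that extent. *Myh7* stood at 6.0, -1.67 and 3.52 in the muscles of mice KI1, KI2 and KI3, and its difference was 0.67 against 5.56 in WT mice. *Ptgds* stood at -1.73, -2.59 and 4.53 in those muscles, with a difference of 4.93 against 9.95, and *Bdh1* had one of 0.44 against 3.76. Of the called genes that the naming rule chose, *Ngp*, a neutrophil gene, alone changed sign, from 2.19 in WT mice to -0.48 in *Rap1* KI mice. The *Rap1* KI value was not called (limma, adjusted p = 0.863). In WT mice *Ngp* was well above background in 2 hearts and 1 muscle, and the tissues overlapped. It lost the WT call without WT2 (adjusted p = 0.0877) and without WT3 (adjusted p = 0.0911).

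**Figure D5:**
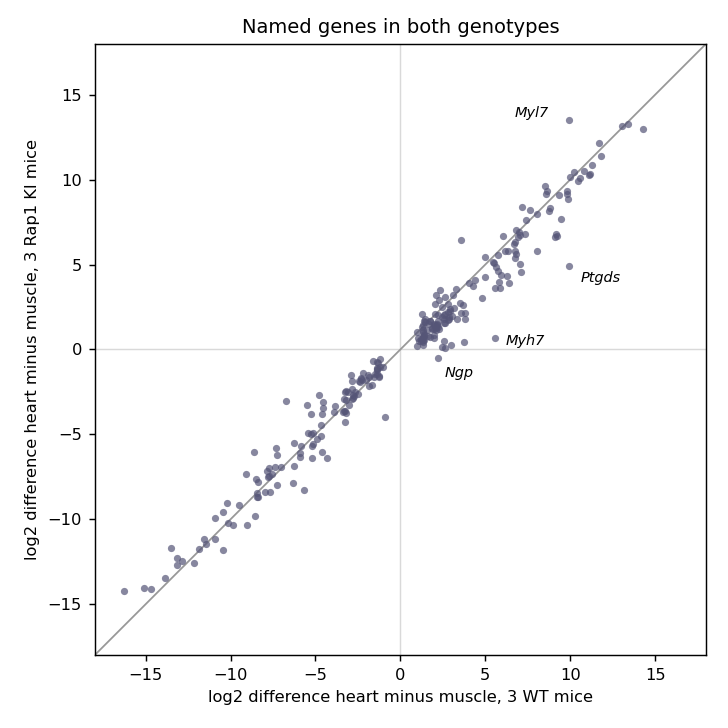
Heart minus muscle in WT mice against the same difference in *Rap1* KI mice. Each point is 1 gene chosen by the naming rule, with the log2 difference in 3 WT mice on the horizontal axis and in 3 *Rap1* KI mice on the vertical axis, and the line marks equality. Most genes lie near the line, *Myh7*, at 5.56 and 0.67, and *Ptgds*, at 9.95 and 4.93, lie below it, and *Ngp* lies at 2.19 and -0.48, the latter not called.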

How the data were processed

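Per the labels, total RNA of each tissue was labelled with Cy3 and hybridised to 1-color Agilent mouse arrays. The authors deposited 1 scanner file per array, made with Feature Extraction (12.0.3.1 per the submitters' processing notes), whose processed signal is a background-corrected intensity on a linear scale. The deposited value table holds z-scores of the same arrays, a score that was recomputed from the log2 intensity to within 0.005 and was used only as an alternative.

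From the deposited intensity, log2 values minus each array's 75th percentile were computed after removal of 3671 control spots per array. No spot was saturated (0). A probe was tested where 3 or more of these arrays had it well above background, which left out 22385 of 55681, and 25 tested probes lacked a value on 1 array. Heart minus muscle was tested with limma 3.58.1 in R 4.3.3, with the mouse as a fixed block and Benjamini-Hochberg adjustment over all 33296 probes at a threshold of 0.05, two-sided. Heart and muscle arrays were paired because their titles carry the same animal number. The deviations of heart and muscle from their tissue means had r of 0.09, -0.26 and -0.22 within WT1, WT2 and WT3. Between different mice r ran from -0.09 to 0.30, and with the mouse as a random block the consensus correlation was -0.13. The pairing rests on the titles and not on these values. An exact test of 3 pairs for a single gene could not go below p = 0.25. The genotype difference was tested with limma on within-mouse differences. The mice are separate animals, and 3 per tissue limit the precision.

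Probes were named through their accessions in the RefSeq gene table of GRCm38.p6, which named 28331 probes of 21368 genes and left 27350 unnamed. A gene was read from its tested probe with the highest mean level. Of 4136 genes with several tested probes, 25 had probes called in opposite directions. For a probe not above background on any array of a tissue, the bound sets the brighter mean against the mean, per array, of the higher of its own level and the lowest level of any probe well above background. Named were all isoform pairs, up to 6 called genes per list and direction, the 15 largest differences per direction over the array and the 5 smallest p-values of the genotype difference, and other genes were chosen after their values were seen. The members and the 28 gene lists and 22 marker lists were chosen with earlier results of these data known. Some of the genes these rules name are not reported here. The fits were tested on simulated data. Alternatives were the pairing, the slide, the normalization, the background correction, the filter, the threshold, the arrays used and leaving out each mouse. The comparison within a slide and the count of genes at least 3 log2 units apart were chosen after seeing the data.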

Additional observations from a re-analysis of the deposited data

How the results depend on the processing

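Without the replicate block, that is without pairing the tissues by mouse, 5782 probes were higher in heart and 5969 in muscle, 11751 in all, and these held 8888 (97.9%) of the 9076 calls. With the slide as the block in place of the mouse the counts were 5335 and 4999, with quantile normalization 4743 and 4503, with normexp on the median signal, since no mean signal was in the scanner files used, 4086 and 5644, with the authors' z-scores 5016 and 4377, and without a filter on dim probes 3294 and 3372. Normexp moved the median over all tested probes to -0.20 from -0.07. At an adjusted p below 0.01 there were 3606 calls, 1845 in heart and 1761 in muscle, and with all 24 arrays and no replicate block 6831 were higher in muscle. Leaving out 1 mouse gave 4962 to 10119 calls, 2561 to 4501 in heart and 2401 to 5618 in muscle. No call shared with another setting over WT mice had the opposite sign (0 in each), and the genotype difference had 0 calls in every setting run. The median of the isoform pairs, -0.14, changed sign to 0.38 with the slide block and lay between -0.71 and 0.37 with 1 mouse left out, above 0 without WT2 (0.18) and without WT3, and the hepatocyte median, 0.95, lay between -0.36, without WT2, and 1.71. Ngp changed sign to -0.48 in Rap1 KI mice, where it was not called. The cause of these changes was not tested. Over the settings that kept all WT mice, 2936 values of named genes kept direction and side of the threshold, 116 lost the call and 14 gained it, with 1 mouse left out 678 did, 102 lost it and 3 gained it, and with the Rap1 KI mice in place of the WT mice 213 did, 44 lost it and 3 gained it. Probes near background limit what can be said of genes low in both tissues.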
